A study of Mus musculus with 56 samples.

Results

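The Notch family was followed through pregnancy and the postpartum period in thymic epithelial cells (TECs) by 10 genes. These were the ligand genes Dll4, Dll1, Jag1 and Jag2, the receptor genes Notch1, Notch2 and Notch3, and Hes1, Hey1 and Hes6, which encode transcription factors of the Hes and Hey family. They were listed by name and found by their Ensembl identifiers among the 50600 genes of each table, and all 10 passed the filter for testing in both cell types. RNA was measured in cortical TECs (cTECs) and medullary TECs (mTECs) sorted from B6.SJL (B.6SJL-Ptprca Pep3b/BoyJ-CD45.1) females, in 28 samples per cell type. Both were EpCAM+ CD45- cells, with cTECs taken as UEA1- and mTECs as UEA1+. The females had been mated with BALB/cJ males, and their pups were taken away at birth because lactation slows the recovery of the thymus. The groups were age-matched females that had not been pregnant (NPC), females on day 18 of gestation (D-2), the day of parturition (D0) and days 1 to 28 after it (D1 to D28). Each cell type had 3 samples in 6 of these groups (NPC, D-2, D0, and days 3, 6 and 12) and 1 sample at each of the 10 other time points, whose values have no replicate check. By the study's methods, each replicate came from a single mouse.

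Notch receptors sit on the cell surface and are cut when a ligand on a neighbouring cell binds and pulls them. The part that is set free enters the nucleus, joins the DNA-binding protein RBPJ and turns on target genes, of which Hes and Hey genes are the best known. In the thymic cortex, DLL4 on cTECs binds NOTCH1 on incoming progenitors and commits them to the T cell lineage, and Dll4 is a target of FOXN1, the transcription factor that TECs need.

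Levels are given as FPKM, which the authors had scaled by transcript length and by the fragments of each library. Statements that all samples of 1 group lay above or below those of another mostly compare 3 with 3 samples. Such separation also arises without a change, and the share of all genes that separated was not counted. Differences were tested on the expected counts with limma-voom and are given as log2 fold changes with their standard errors. A gene was called at a change of at least 2-fold together with a p of at most 0.01 after Benjamini-Hochberg adjustment over all genes tested, which were 15845 in cTECs and 17743 in mTECs. The time points were compared in 1 fit per cell type, and D0, D3, D6 and D12 were all set against the same 3 D-2 samples, so these comparisons are not independent of each other. Late (D16 to D28) against early (D0 to D12) was a separate fit with 1 mean per phase. It held 4 late samples, each of a different day, and 18 early samples per cell type. Its p-values therefore rest on a spread that mixes differences between days with those between replicates.

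The sort labels were checked against their markers. All 8 cTEC markers, among them Psmb11 and Prss16, were called higher in cTECs, and 7 of 9 mTEC markers, among them Aire, were called higher in mTECs. Libraries held 4561208 to 108547384 counts. The libraries cTEC D3 replicate 2, cTEC D20, mTEC D3 replicate 1 and mTEC D0 replicate 2 stood apart, with a median correlation below 0.8 with the other libraries of their cell type. The summed FPKM of 20 thymocyte genes was 49.2 to 599 in cTECs and 44.6 to 172 in mTECs, and 11 of them were called higher in cTECs. For 10 endothelial genes the sum was 0 to 12.5 in cTECs and 3.45 to 26.3 in mTECs, for 10 mesenchymal genes 179 to 880 and 294 to 920, and for 10 macrophage and dendritic cell genes 4.48 to 44.7 and 19.9 to 230. In such bulk samples, fewer cells of a type and less RNA per cell cannot be told apart.

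The genes the results turn on are Dll4, Hes6 and Notch1. Dll4 lies on chromosome 2 from 119325784 to 119335962 (GRCm38, plus strand), Hes6 on chromosome 1 from 91411483 to 91414038 (minus strand) and Notch1 on chromosome 2 from 26457903 to 26516663 (minus strand). In GENCODE M21, transcripts on the opposite strand overlap Dll4 (Gm14207), Notch1 (0610009E02Rik and Gm13568), Dll1 (A930024N18Rik) and Notch3 (Gm17276). The libraries were stranded, but no source used here states the strand setting of the counting, so the share of such reads is uncertain. The bases before the RefSeq starts of Dll4, Hes6 and Notch1 are shown because the levels of these genes moved together or in opposite directions over the time course. Each is the strand of the gene from 5′ to 3′, 250 bases long, from RefSeq on GRCm38.p6. The Dll4 stretch is chr2:119325534-119325783, the Hes6 stretch chr1:91414039-91414288 and the Notch1 stretch chr2:26503823-26504072. The Notch1 stretch lies inside the span of the gene in GENCODE M21, which has a start further upstream.
Dll4: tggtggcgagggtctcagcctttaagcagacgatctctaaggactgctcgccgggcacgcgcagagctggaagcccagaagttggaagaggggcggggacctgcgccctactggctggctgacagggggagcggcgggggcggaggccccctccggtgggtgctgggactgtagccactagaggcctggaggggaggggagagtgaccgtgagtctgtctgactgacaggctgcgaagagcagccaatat
Hes6: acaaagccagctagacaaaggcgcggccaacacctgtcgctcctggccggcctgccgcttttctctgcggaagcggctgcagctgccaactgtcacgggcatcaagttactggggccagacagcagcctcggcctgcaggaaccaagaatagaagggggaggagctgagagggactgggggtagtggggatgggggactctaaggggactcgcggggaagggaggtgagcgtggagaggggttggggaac
Notch1: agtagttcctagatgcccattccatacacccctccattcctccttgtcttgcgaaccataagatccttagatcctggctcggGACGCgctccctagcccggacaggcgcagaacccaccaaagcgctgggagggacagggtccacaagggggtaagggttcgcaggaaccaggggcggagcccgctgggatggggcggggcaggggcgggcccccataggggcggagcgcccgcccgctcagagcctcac
Capitals mark GACGC or its reverse complement GCGTC, the core that FOXN1 binds. TGGGAA and its reverse complement TTCCCA, the core that RBPJ binds, were searched too, and a match of one core cannot share letters with a match of the other. GACGC was found on either strand in 22.6% of all 32851 promoter stretches of this length, and TGGGAA in 21.6%. The Notch1 stretch held 1 GACGC, 168 bases before the start, and no TGGGAA. Those of Dll4 and Hes6 held neither. Promoters were found for 8 of the 10 genes. The stretches of Jag1 and of 1 of the starts of Dll1 held 1 GACGC each, and no stretch of these 8 genes held TGGGAA.

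Dll4 is the ligand that commits progenitors to the T cell lineage, and in cTECs its highest level was 23.1 times its lowest. It was at its lowest at D-2, with 5.37, 3.03 and 3.13 FPKM, against 20.4, 25.8 and 19.8 FPKM in NPC. At D0 the samples held 8.19, 10.2 and 10.2 FPKM. The 3 D-2 samples were below all others of the 28 cTEC samples.
Of Dll4, the single cTEC samples of D1 and D2 held 26.1 and 30.1 FPKM, and the D3 samples 23.8, 19.0 and 18.1 FPKM. The D1 value came with a short implied transcript length, 2.5 kb where the median cTEC library had 3.66 kb. In counts per library size (CPM), with no length, D1 held 65.3, within the NPC range of 62.5 to 94.4, and D2 held 110. The single samples of D4 and D5 held 26.5 and 37.9 FPKM. At D6 the samples held 69.9, 45.1 and 57.8 FPKM, the highest group mean of the time course (57.6 ± 12.4 FPKM, SD, n = 3), and all 3 lay above every D-2 and NPC sample. From D8 to D16 the levels were 43.1 (D8), 27.6 (D10), 36.4, 31.7 and 31.3 (D12) and 46.5 FPKM (D16). They were 15.4, 13.7 and 10.8 FPKM at D20, D24 and D28, the 3 last time points, which lay below all NPC samples and above all D-2 samples.

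Dll4 rose 15.5-fold from D-2 to D6 in cTECs (log2 fold change 3.96 ± 0.53 SE, adjusted p = 0.000186, limma-voom). It was also 9.38-fold higher at D12 than at D-2 (3.23 ± 0.53, adjusted p = 0.00202, limma-voom), which no longer passed without any 1 of the 3 D-2 samples (adjusted p between 0.0171 and 0.0347). The change at D6 passed without any 1 of the 6 samples (adjusted p between 0.000138 and 0.00596), and with no filter on low genes neither change passed (adjusted p = 0.0197 at D6 and 0.0807 at D12). Of the 8 cTEC markers, 7 were called higher at D6 and 7 at D12 against D-2 (medians 3.14 and 3.19), among them Psmb11 and Prss16 (both 13.2-fold at D6), and 4 were called lower at D-2 against NPC. Their summed FPKM was 6326 to 9408 in NPC, 1502 to 2817 at D-2, 13361 to 14713 at D6 and 12510 to 13382 at D12, and the part of this shift in the Dll4 changes was not tested. For Dll4 at D-2 against NPC the log2 fold change was -2.55 ± 0.54, which missed the threshold (adjusted p = 0.0492, limma-voom). All 3 D-2 samples lay below all 3 NPC samples. At D0 it was 1.41 ± 0.54 and at D3 2.39 ± 0.55 against D-2, neither of which passed (adjusted p = 0.999 and 0.0653, limma-voom). D12 against NPC gave 0.67 ± 0.20 (adjusted p = 0.578), with all D12 samples above all NPC samples.

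In mTECs, Dll4 held 7.32, 8.13 and 7.78 FPKM in NPC, 7.10, 4.06 and 6.52 FPKM at D-2 and 6.72, 6.60 and 7.02 FPKM at D0. The D-2 samples lay just below the NPC samples. At D3 the samples held 23.8, 22.6 and 12.1 FPKM and at D6 12.5, 28.3 and 14.7 FPKM, in both cases all above the D-2 samples. At D12 they held 10.1, 4.85 and 8.42 FPKM and overlapped with D-2. The lowest value of the 28 mTEC samples, 2.90 FPKM, was that of D28. The log2 fold change from D-2 was 1.39 ± 0.38 at D3 and 1.51 ± 0.37 at D6, and neither passed the threshold (adjusted p = 0.0697 and 0.0923, limma-voom). The summed FPKM of the 8 cTEC markers in these mTEC libraries was 981 to 1858 at D-2, 3928 to 4474 at D3 and 3424 to 6365 at D6. Of these markers, 7 of 8 had a positive log2 fold change at D6 against D-2 (median 1.61, none called), and the part of cTEC RNA in the Dll4 levels was not tested. The difference between the 2 cell types in the change from D-2 to D6 was 2.42 ± 0.74 and did not pass (adjusted p = 0.504, limma-voom). That for D-2 against NPC was -2.30 ± 0.76 (adjusted p = 0.41).

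**Figure D1:**
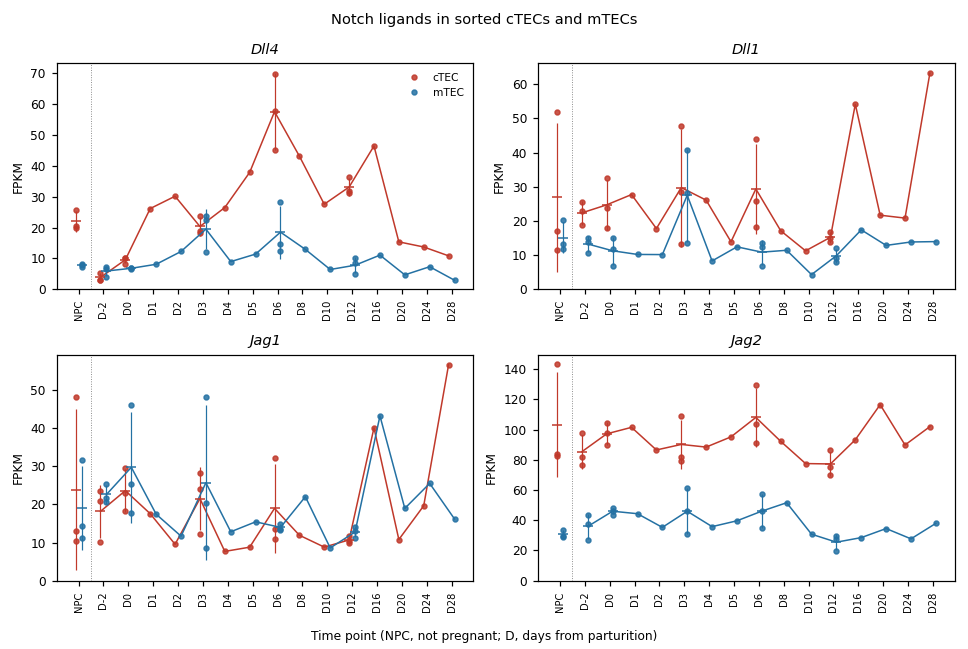
FPKM of the 4 ligand genes in cTECs (red) and mTECs (blue) at each time point, evenly spaced. Points are samples, lines join the means from D-2 to D28, and bars at time points with 3 samples are the mean and SD. Dll4 in cTECs went from 3.03 to 5.37 FPKM at D-2 to 45.1 to 69.9 FPKM at D6, while Jag2 stayed between 70.1 and 143 FPKM in cTECs.

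Jag2, which encodes a ligand of the Jagged type, was the ligand with the highest level in cTECs and the steadiest. It ranged from 70.1 to 143 FPKM over the 28 cTEC samples (median 90.5) and from 19.4 to 61.2 FPKM in mTECs (median 35.5). Its highest cTEC value was 2.05 times its lowest, against 23.1 times for Dll4. No time point comparison called Jag2 in limma-voom with the filter, and with no filter D12 against D-2 in mTECs did (-1.04, adjusted p = 0.00115, limma-voom). Its log2 fold changes in cTECs lay between -0.31 and 0.29. Of the FPKM summed over the 4 ligands in cTECs, Jag2 made up 65.6% ± 4.83 at D-2 and 50.9% ± 5.85 at D6, and Dll4 2.93% ± 0.811 and 27.4% ± 7 (SD, n = 3).

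Dll1 and Jag1, the remaining ligands, differed widely between samples of the same group. Dll1 held 17.0, 11.6 and 52.0 FPKM in the NPC cTECs and Jag1 12.9, 10.4 and 48.1 FPKM, in each case with replicate 3 far above the others. At D-2, cTECs held 25.5, 22.8 and 18.7 FPKM of Dll1 and 10.2, 23.5 and 20.8 FPKM of Jag1. At D6, they held 25.8, 18.2 and 44.0 FPKM of Dll1 and 11.1, 13.6 and 32.3 FPKM of Jag1. None of the 7 time point comparisons called either gene in either cell type. From early (D0 to D12) to late (D16 to D28), Dll1 gave 0.70 ± 0.21 in cTECs (adjusted p = 0.0348, limma-voom), with a range of 11.2 to 47.6 FPKM (median 18.0) over 18 early samples and 20.8 to 63.2 FPKM (median 37.9) over 4 late ones. Over the main and alternative fits, this change lay between 0.26 and 0.95, with adjusted p up to 0.616 (limma-voom, edgeR or DESeq2). Leaving out 1 sample at a time, it lay between 0.33 and 0.93, with adjusted p up to 0.361 (limma-voom).

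Dll1 and Jag1 were high in the same libraries as Notch2. Over the 28 cTEC samples, Pearson's r of log2(FPKM + 0.5) was 0.82 between Dll1 and Jag1, 0.82 between Dll1 and Notch2 and 0.78 between Jag1 and Notch2. In mTECs it was 0.75 between Jag1 and Notch2. These 3 genes were high in cTEC D28, D6 replicate 3, D16 and NPC replicate 3, whose FPKM summed over all genes was 551543, 562676, 570890 and 585640, 4 of the 5 lowest sums in cTECs. The remaining one, D0 replicate 3 (570419), held 23.7 FPKM of Dll1, 29.6 FPKM of Jag1 and 15.3 FPKM of Notch2. The r with the summed FPKM was -0.83 for Jag1, -0.76 for Notch2 and -0.71 for Dll1 over the 26 cTEC libraries left without the 2 that stood apart, and 0.11 for Dll4. With these 2 libraries included, it was -0.56, -0.37, -0.37 and 0.07. These are descriptions over libraries that share depth and preparation, and the part of this property in the levels was not tested.

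**Figure D2:**
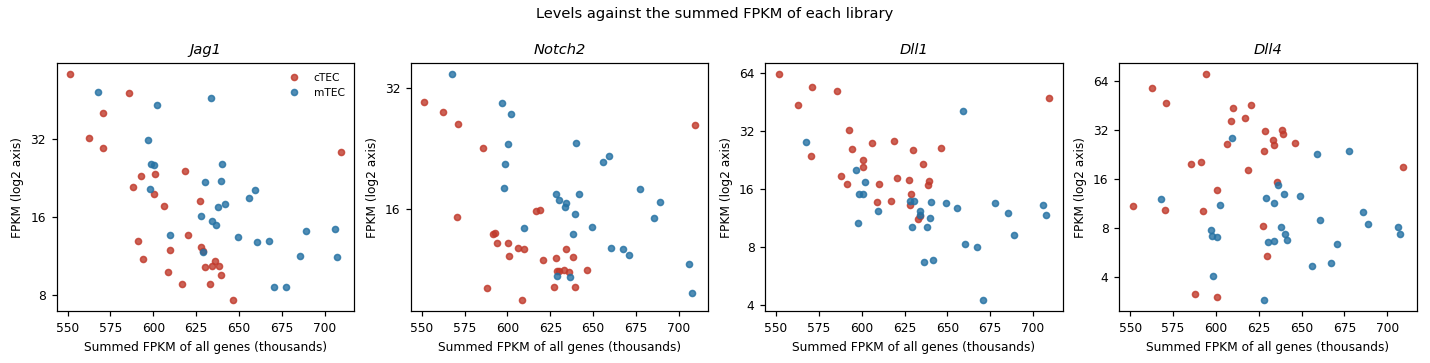
FPKM (log2 axis) of Jag1, Notch2, Dll1 and Dll4 against the FPKM summed over all genes, 1 point per library, in cTECs (red) and mTECs (blue). Jag1, Notch2 and Dll1 were high in cTEC libraries with a low sum, such as 551543 at D28, and the cTEC library with the highest sum (709355, D3 replicate 2) lay off this pattern, while Dll4 showed no such slope.

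Notch1, the receptor that progenitors need for the T cell fate and that epithelial cells also carry, changed the opposite way to Dll4 in cTECs. It held 18.8, 10.1 and 18.9 FPKM in NPC, 47.2, 31.4 and 44.5 FPKM at D-2 and 41.0, 37.2 and 49.2 FPKM at D0. At D6 it held 18.6, 15.2 and 19.8 FPKM and at D12 12.2, 13.7 and 13.6 FPKM. All D-2 samples lay above all NPC, D6 and D12 samples. The single samples of D1 and D2 held 25.8 and 25.4 FPKM, and from D16 to D28 the level was between 13.8 and 20.99 FPKM. At D3 it held 26.6, 58.6 and 26.3 FPKM, and the high value, of replicate 2, came with an implied transcript length of 2.64 kb where the median cTEC library had 9.40 kb. In counts per library size (CPM), with no length, all 3 D3 samples lay below all 3 D-2 samples.

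Notch1 was 2.26-fold lower at D6 than at D-2 in cTECs (log2 fold change -1.18 ± 0.22, adjusted p = 0.00411, limma-voom) and 2.90-fold lower at D12 (-1.54 ± 0.23, adjusted p = 0.000861, limma-voom). The change at D6 no longer passed without D-2 replicate 1, D-2 replicate 3, D6 replicate 1 or D6 replicate 2 (adjusted p between 0.0169 and 0.028, limma-voom), and it kept its direction. The change at D12 no longer passed without D12 replicate 1 (adjusted p = 0.0112, limma-voom). At D-2 against NPC it was 1.36 ± 0.24 (adjusted p = 0.0143, limma-voom), just outside the threshold. D12 against NPC gave -0.18 ± 0.25 (adjusted p = 0.943). The summed FPKM of the 20 thymocyte genes in cTECs was 49.2 to 58.2 at D-2, 152 to 210 at D6 and 259 to 293 at D12, and 62.2 to 359 in NPC, and 1 of these genes, Themis, was called higher at D6 and at D12 than at D-2. The r of this sum over the 28 samples was -0.42 with Notch1 and 0.72 with Dll4 in FPKM, and -0.69 and 0.74 in CPM. Without the 2 libraries that stood apart it was -0.67 and 0.78 in FPKM. The summed FPKM of 10 endothelial genes in the same libraries was low and had its highest group mean at D-2. It was 2.86 to 7.05 in NPC (mean 4.77), 2.51 to 12.5 at D-2 (mean 7.79) and 3.36 to 4.76 at D6 (mean 3.99). At D6, 4 of the 10 were at 0 in all 3 samples. Of the 9 mTEC markers, 8 had a positive log2 fold change at D-2 against NPC in the cTEC libraries (median 0.54, none called) and 0 at D6 against D-2 (median -1.16, with Ccl21a called lower). Their summed FPKM in cTECs was 4375 to 6131 in NPC, 5821 to 8124 at D-2, 3662 to 4261 at D6 and 4521 to 7978 at D12. The part of thymocyte, of endothelial and of mTEC RNA in these changes was not tested.

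In mTECs, Notch1 held 17.1, 58.9 and 23.2 FPKM in NPC, 28.9, 32.2 and 34.2 FPKM at D-2 and 24.6, 41.3 and 35.8 FPKM at D6. The value of 58.9 FPKM rested on a short transcript length. The length implied by count and FPKM was 3.92 kb in this library and 9.38 kb in the median mTEC library, and it was also short in mTEC D3 replicate 1 (3.16 kb), D20 (4.97 kb) and D12 replicate 1 (5.71 kb). In CPM, the NPC samples held 161, 231 and 209 and the D-2 samples 272, 302 and 321, which did not overlap. The log2 fold change of D-2 against NPC was 0.64 ± 0.18 (adjusted p = 0.0675, limma-voom), and that of D6 against D-2 was -0.04 ± 0.18 (adjusted p = 0.997). The difference between cTECs and mTECs in the change from D-2 to D6 was -1.16 ± 0.29 and did not pass (adjusted p = 0.269, limma-voom).

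**Figure D3:**
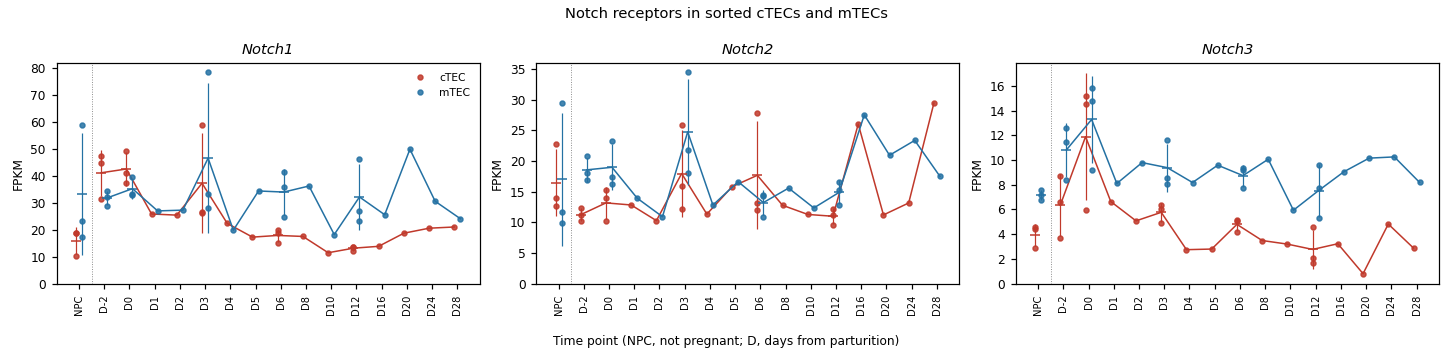
FPKM of the 3 receptor genes in cTECs (red) and mTECs (blue) at each time point, evenly spaced. Points are samples, lines join the means from D-2 to D28, and bars are the mean and SD of 3 samples. Notch1 in cTECs was 31.4 to 47.2 FPKM at D-2 and 12.2 to 13.7 FPKM at D12, and the high mTEC values of NPC replicate 2 and D3 replicate 1 came with short implied transcripts.

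Notch2, a receptor with its own set of developmental roles, ranged from 9.54 to 29.4 FPKM in cTECs (median 12.7) and from 9.90 to 34.5 FPKM in mTECs (median 16.6). No time point comparison called it. Notch3, best known from the muscle cells of blood vessels and also expressed by thymocytes, was the lowest of these 3 receptors, with a median of 4.57 FPKM in cTECs and 9.11 FPKM in mTECs. In cTECs it held 3.71, 6.63 and 8.73 FPKM at D-2, 15.2, 5.96 and 14.5 FPKM at D0 and 1.68, 2.04 and 4.59 FPKM at D12. D12 against D-2 gave -1.24 ± 0.47 in cTECs (adjusted p = 0.246, limma-voom) and -0.72 ± 0.24 in mTECs (adjusted p = 0.134). The main limma-voom fit of each cell type used all 28 samples, the filter on low genes and no covariate. In it, none of the 8 genes other than Dll4 and Notch1 passed at D6 or D12 against D-2 in either cell type. Hes6, Hes1 and Jag2 passed there in some of the other fits.

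Hes6, whose product counteracts HES1 in other tissues, had higher levels at D6 than at D-2 in cTECs, as Dll4 did. From D6 to D12 the mean of Dll4 went from 57.6 to 33.1 FPKM, and that of Hes6 from 78.9 to 90.2 FPKM. In cTECs it held 51.5, 76.3 and 61.5 FPKM in NPC, 46.2, 16.1 and 12.1 FPKM at D-2 and 41.4, 37.9 and 39.7 FPKM at D0. At D6 it held 73.3, 74.5 and 88.8 FPKM and at D12 90.3, 75.2 and 105 FPKM, all above the D-2 samples. The log2 fold change from D-2 was 1.96 ± 0.48 at D6 and 2.23 ± 0.48 at D12, and both missed the threshold (adjusted p = 0.0214 and 0.0163, limma-voom). Both passed with DESeq2 (1.60 and 1.83, adjusted p = 0.00316 and 0.000765) and, in a fit chosen after the data were seen, without the libraries that stood apart (1.93 and 2.19, adjusted p = 0.00206 and 0.0013, limma-voom), and the change at D12 also passed when only the groups compared were fitted (adjusted p = 0.0042, limma-voom). The r between Hes6 and Dll4 over the 28 samples was 0.76 in cTECs and 0.68 in mTECs.

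In mTECs, Hes6 held 141, 173 and 87.5 FPKM in NPC, 88.8, 52.2 and 70.0 FPKM at D-2, 179, 88.5 and 132 FPKM at D0 and 255, 243 and 240 FPKM at D6. The 3 D6 samples lay above all NPC and D-2 samples, and the highest value, 283 FPKM, was that of D8. Against D-2, D6 gave 1.80 ± 0.34 (adjusted p = 0.0196, limma-voom), past the fold and not the adjusted p, and it passed with DESeq2 (1.73, adjusted p = 7.86e-05). This change also passed when only the groups compared were fitted (1.85, adjusted p = 0.00461, limma-voom). The 4 late samples held 80.4 (D16), 74.6 (D20), 76.4 (D24) and 71.8 FPKM (D28), below each of the 18 early samples, which ranged from 88.5 to 283 FPKM (median 188). Late against early gave -1.31 ± 0.24 with an adjusted p of 0.0102 (limma-voom), just outside the threshold. The change from D-2 to D6 did not pass a test of a difference between the 2 cell types (0.11 ± 0.79, adjusted p = 1, limma-voom).

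Hes1, the classical target of Notch signalling, was high at D-2 in both cell types. In cTECs it held 57.9, 77.5 and 37.3 FPKM in NPC, 119, 87.9 and 127 FPKM at D-2, 61.7, 51.8 and 30.1 FPKM at D6 and 70.5, 54.5 and 77.9 FPKM at D12. In mTECs it held 56.6, 59.6 and 40.2 FPKM in NPC and 102, 80.8 and 117 FPKM at D-2. In both, all D-2 samples lay above all NPC samples. Other time points overlapped with the D-2 range, such as D0 (86.8 to 102 FPKM) and D4 (121 FPKM) in cTECs. In mTECs, D1 held 96.8 FPKM, D6 up to 105 FPKM and D28 104 FPKM. The log2 fold change of D-2 against NPC was 1.02 ± 0.26 in mTECs (adjusted p = 0.0479, limma-voom) and 0.94 ± 0.43 in cTECs (adjusted p = 0.572). D6 against D-2 gave -1.24 ± 0.39 in cTECs (adjusted p = 0.0777) and -0.50 ± 0.27 in mTECs (adjusted p = 0.771).

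At D3 the cTEC samples held 62.9, 0.09 and 47.0 FPKM of Hes1, and the middle value, of replicate 2, rested on 1 count. The fitted change of -4.26 ± 1.36 from D-2 to D3 (adjusted p = 0.18, limma-voom) depended on this library, one of those that stood apart, and was -0.99 (adjusted p = 0.523) when replicate 2 alone was left out. Without the cTEC libraries that stood apart, Hes1 gave -1.25 from D-2 to D6 in cTECs, which passed (adjusted p = 0.00644, limma-voom), and with no filter it passed in mTECs for D-2 against NPC and for D12 against D-2 (-1.11, adjusted p = 0.000885, limma-voom).

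Hey1, another direct target, was higher in cTECs (median 60.7 FPKM, range 28.6 to 78.3) than in mTECs (median 30.4 FPKM, range 17.4 to 57.3). No comparison with D-2 or NPC called it, and D6 against D-2 gave 0.48 ± 0.26 in cTECs and 0.56 ± 0.29 in mTECs. The 18 early cTEC samples ranged from 49.1 to 78.3 FPKM (median 62.8), and the 4 late ones held 49.2 (D16), 28.6 (D20), 43.4 (D24) and 37.1 FPKM (D28). Late against early gave -0.91 ± 0.14 (adjusted p = 0.00037, limma-voom), a 1.88-fold difference that was under the 2-fold limit. Of the late samples, all but D16 lay below every early one. Over the main and alternative fits, the change lay between -1.03 and -0.48, with adjusted p up to 0.221 (limma-voom, edgeR or DESeq2). In these libraries the summed FPKM of 4 TEC markers was 4056 to 11949 early and 2586 to 6442 late. That of the 10 mesenchymal genes was 179 to 544 and 474 to 880. The part of this shift in the Hey1 change was not tested.

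**Figure D4:**
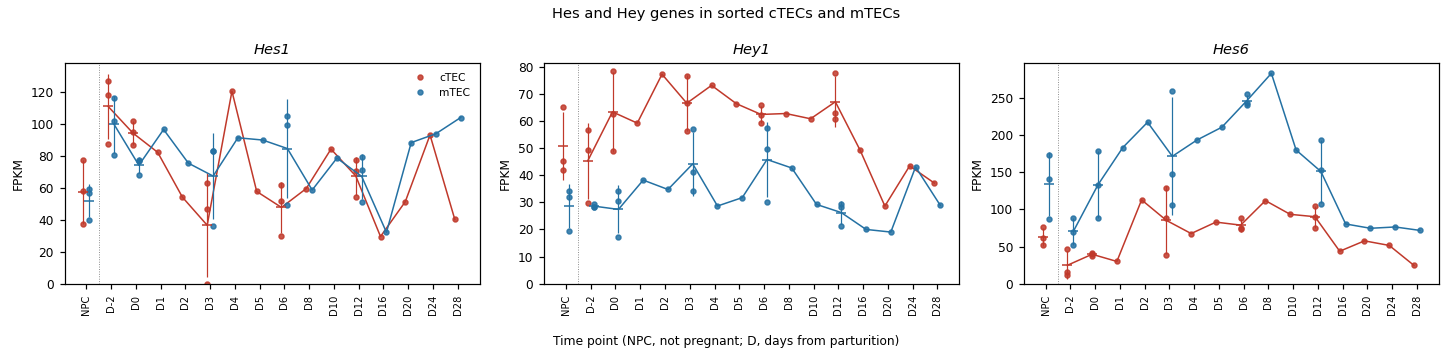
FPKM of Hes1, Hey1 and Hes6 in cTECs (red) and mTECs (blue) at each time point, evenly spaced. Points are samples, lines join the means from D-2 to D28, and bars are the mean and SD of 3 samples. Hes6 in mTECs was 240 to 255 FPKM at D6 and 71.8 to 80.4 FPKM from D16 to D28, and the point of Hes1 at 0.09 FPKM is cTEC D3 replicate 2.

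Counted over comparisons, the calls among the 10 genes were few. D6 against D-2 in cTECs called 2 of them, Dll4 higher and Notch1 lower, where 1.58% of all genes tested were called. D12 against D-2 in cTECs called the same genes, Dll4 and Notch1, where 0.77% of all genes were called. The median log2 fold change of the 10 genes was 0.08 at D6 and -0.37 at D12 in cTECs, beside -0.02 and 0.04 over all genes tested.

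The remaining time point comparisons called 0 of the 10 genes in the main limma-voom fits. The share of all genes called was 0.0947% for D-2 against NPC, 0% for D0 against D-2, 0.114% for D3 against D-2, 0% for D12 against NPC and 1.41% for late against early in cTECs. In mTECs it was 0.569% for D-2 against NPC, 0% for D0 against D-2, 0.0113% for D3 against D-2, 0.0113% for D6 against D-2, 0.49% for D12 against D-2, 0% for D12 against NPC and 0.062% for late against early. At an unadjusted p under 0.05, 4 of the 10 genes passed for D-2 against NPC in cTECs, beside 8.36% of all genes, and 5 in mTECs, beside 16.8%. In mTECs, 6 passed for D12 against D-2 (15.5% of all genes) and 2 for D6 against D-2 (7.55%). For late against early 6 passed in cTECs (27.2%) and 2 in mTECs (20%). For D0 against D-2 the numbers were 1 in cTECs (3.93%) and 2 in mTECs (6.4%), for D3 against D-2 4 (18.9%) and 3 (15.3%), and for D12 against NPC 3 (6.61%) and 0 (11.9%). DESeq2 called Dll4 and Notch1 for D-2 against NPC in cTECs, Dll4 for D0 against D-2 in cTECs, Dll4 and Hes6 for D3 against D-2 in cTECs, Dll4 for D3 against D-2 in mTECs, Dll4 and Hes6 for D6 against D-2 in mTECs and Hes6 for late against early in mTECs. The edgeR quasi-likelihood test called Dll4 for D-2 against NPC and for D3 against D-2 in cTECs, and both tools called 0 of the 10 genes in the other comparisons that called 0 by limma-voom. Over all genes, DESeq2 called 122 for D-2 against NPC, 15 for D0 against D-2 and 198 for D3 against D-2 in cTECs, and 181 for D3 against D-2, 113 for D6 against D-2 and 20 for late against early in mTECs. edgeR called 24 for D-2 against NPC and 42 for D3 against D-2 in cTECs. Where limma-voom called 0% of all genes, 623 genes for D0 against D-2 and 1048 for D12 against NPC in cTECs, and 1136 and 2119 in mTECs, had an unadjusted p under 0.05. There DESeq2 called 15 and 5 of all genes in cTECs and 11 and 10 in mTECs, and edgeR called 0.

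The tests of a difference between the cell types also called 0 of the 10 genes by limma-voom, with 0% of all genes called for D-2 against NPC and 0.00544% for D6 against D-2, and 2 of the 10 genes passed an unadjusted p under 0.05 in each, beside 8.05% and 4.91% of all genes. DESeq2 called Dll4 in both, and edgeR called none of the 10 genes. For D-2 against NPC, 1480 of all genes had an unadjusted p under 0.05, DESeq2 called 25 and edgeR 0. For D6 against D-2, DESeq2 called 57 of all genes and edgeR 2.

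**Figure D5:**
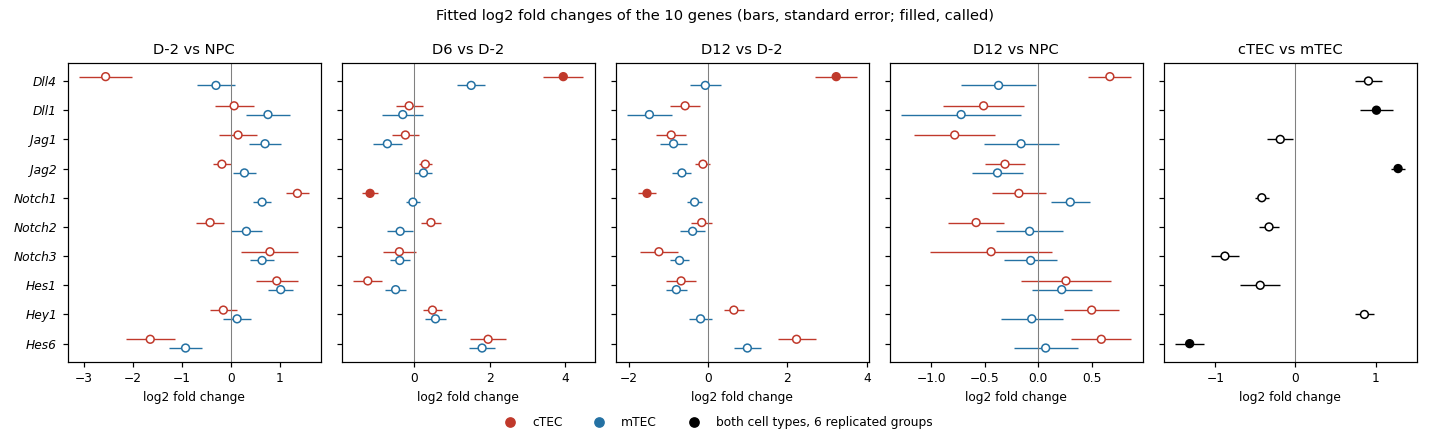
Log2 fold changes of the 10 genes from limma-voom in cTECs (red), mTECs (blue) and between the cell types over the 6 replicated groups (black), with bars of 1 standard error and filled points for genes called. Each panel has its own x axis. Dll4 (3.96) and Notch1 (-1.18) are filled at D6 against D-2 in cTECs, and no mTEC point is filled.

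Between the cell types, cTECs held more Dll1 and Jag2 and less Hes6. Averaged over the 6 time points with 3 samples each, the log2 difference of cTECs against mTECs was 1.28 ± 0.09 for Jag2 (adjusted p = 1.57e-12), 1.01 ± 0.21 for Dll1 (adjusted p = 0.000241) and -1.32 ± 0.18 for Hes6 (adjusted p = 4.45e-07, all limma-voom). These 3 genes of 10 were called, where 16.8% of all 18394 genes tested were. Dll1 stood at the 2-fold limit. It was not called with RLE scaling (0.94), with the sample number as a replicate block (0.79) or without any 1 of 7 samples, such as mTEC NPC replicate 2 (0.86). Nor was it called with the libraries that stood apart left out (0.95) or the total FPKM as a covariate (0.75), fits chosen after the data were seen. Dll4 passed the 2-fold limit without mTEC D6 replicate 2 (1.03). The implied transcript length of Dll1 also differed between libraries, from 1.79 to 3.50 kb in cTECs and from 0.858 to 3.50 kb in mTECs.

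Among the others, Dll4 (0.91 ± 0.17, adjusted p = 5.64e-05) and Hey1 (0.86 ± 0.12, adjusted p = 1.03e-06) were higher and Notch3 (-0.88 ± 0.18, adjusted p = 0.000232) and Notch1 (-0.42 ± 0.09, adjusted p = 0.000289) lower in cTECs at less than 2-fold (limma-voom). Notch2 gave -0.33 ± 0.13 (adjusted p = 0.0474), Hes1 -0.44 ± 0.25 (adjusted p = 0.162) and Jag1 -0.19 ± 0.16 (adjusted p = 0.379). Jag2, Hey1 and Hes6 each differed in the same direction in all 26 pairs of samples with the same time point and number, with Jag2 and Hey1 higher and Hes6 lower in the cTEC sample. Dll1 was higher in the cTEC sample of 24 pairs and Dll4 of 22. In the level per length, the order of the medians in cTECs was Jag2 (90.5 FPKM), Hes6 (64.5), Hes1 (62.3), Hey1 (60.7), Dll4 (24.8), Dll1 (21.2), Notch1 (20.2), Jag1 (13.3), Notch2 (12.7) and Notch3 (4.57), and the ranges of all neighbours in this order overlapped. In mTECs it was Hes6 (150 FPKM), Hes1 (79.0), Jag2 (35.5), Notch1 (31.4), Hey1 (30.4), Jag1 (16.8), Notch2 (16.6), Dll1 (12.3), Notch3 (9.11) and Dll4 (8.11), and the ranges of neighbours overlapped here too.

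The genes with a time course most like Dll4 in cTECs were taken by Pearson's r of log2(FPKM + 0.5) over the 28 samples among 10068 genes with a mean of at least 5 FPKM. They were Sh2d4b (r = 0.947), Prss16 (0.943), Pds5b (0.932), Akap12 (0.927) and Fabp5 (0.926). Prss16 encodes a protease of cTECs, and its level ranged from 170 to 3248 FPKM. The r of Foxn1 with Dll4 was 0.55 in cTECs. For Hes6 in mTECs, among 10502 genes, they were Lypd1 (0.881), Psmb11 (0.86), Pltp (0.857), Tst (0.852) and Tubb6 (0.85). Psmb11, which encodes a proteasome subunit of cTECs, ranged from 4.51 to 178 FPKM in mTECs.

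Of 54 other genes of the pathway, 50 were tested in cTECs and 53 in mTECs. Between the cell types 11 of 53 were called, 3 higher and 8 lower in cTECs, where 16.8% of all genes were called, a share near that of the list. The higher ones were Dlk2, a ligand-like gene (2.22 ± 0.29), and Dtx4 (1.53 ± 0.20) and Dtx1 (1.47 ± 0.37), which encode E3 ligases of the Deltex family. The lower ones were Dlk1 (-4.79 ± 0.51), Dll3 (-3.67 ± 0.45) and Dner (-2.52 ± 0.71) among the ligand-like genes, the glycosyltransferase Mfng (-3.21 ± 0.43), the ligase Neurl1b (-2.02 ± 0.36), the target genes Il2ra (-1.86 ± 0.25), also 1 of the 20 thymocyte genes, and Heyl (-1.26 ± 0.16), and the protease subunit Psen2 (-1.10 ± 0.29). None of the 7 genes of the nuclear complex, which holds Rbpj, and none of the 10 repressors were called there. The part of mesenchymal, macrophage and dendritic cell RNA in these differences was not tested.

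Over time, 1 of 50 other genes was called for D6 against D-2 in cTECs, beside 1.58% of all genes. It was Lfng, a glycosyltransferase that tunes which ligand a receptor answers to, at 2.60, 2.49 and 1.08 FPKM at D-2 and 0, 0 and 0.61 FPKM at D6, levels that rest on at most 49 counts. In mTECs, Cir1, a corepressor that binds RBPJ, held 23.4, 22.2 and 14.5 FPKM in NPC, 82.1, 72.3 and 62.1 FPKM at D-2 and 20.4, 21.7 and 33.1 FPKM at D12. It was called higher at D-2 than in NPC (1.75 ± 0.28, adjusted p = 0.00284) and lower at D12 than at D-2 (-1.65 ± 0.28, adjusted p = 0.00593, limma-voom). Fbxw7, part of the ligase that marks cut NOTCH for breakdown, was called at D-2 against NPC in mTECs (1.21 ± 0.23, adjusted p = 0.00956, limma-voom), with 8.86, 10.8 and 14.8 FPKM in NPC and 34.7, 20.6 and 23.3 FPKM at D-2. Late against early in cTECs called Heyl (-1.67 ± 0.24, adjusted p = 0.000215, limma-voom), another target gene of the Hey type, which held 7.43, 6.34, 4.71 and 7.70 FPKM at D16, D20, D24 and D28. No other gene of the list was called in a time point comparison, and the median of the list at D6 against D-2 was -0.05 in cTECs and -0.02 in mTECs, beside -0.02 and -0.03 over all genes.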

How the data were processed

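Poly(A) RNA of 56 sorted samples was sequenced, at 4561208 to 108547384 counts per sample (median 17972566). Per the labels and the study's methods, the authors demultiplexed with bcl2fastq 2.20, trimmed with Trimmomatic 0.35, aligned to GRCm38 with STAR 2.5.1b and quantified with RSEM 1.2.28, and deposited expected counts and FPKM per gene and sample. Identifiers were matched to GENCODE M21, which named 50376 of 50600 genes. The annotation release is not given in the sources used here.

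Expected counts were rounded, scaled by TMM (edgeR 4.0.16) and tested with limma-voom (limma 3.58.1, R 4.3.3) over genes with a mean of at least 0.5 FPKM, in 1 fit of all time points per cell type, or of both cell types over the 6 replicated groups. Late against early was fitted separately, with 1 mean per phase. DESeq2 1.42.0, the edgeR quasi-likelihood test, RLE scaling, other filters and groupings, a replicate block and leaving out libraries were alternatives. Two-sided p-values were adjusted by Benjamini-Hochberg over all genes tested. The test code was checked on simulated counts. Implied transcript length is CPM divided by FPKM. FPKM depends on that length and on which transcripts RSEM assigned reads to, while the tests used counts without it.

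The 10 genes were named throughout, genes of the pathway and marker lists where called, and the 5 genes with the highest r with Dll4 in cTECs and Hes6 in mTECs. The members and lists were chosen with earlier results of these data known.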

Additional observations from a re-analysis of the deposited data

Results flagged for a closer look

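Dll4 in the late cTEC samples was flagged because 1 sample lay far from the others. The D16 sample held 46.45 FPKM, and those of D20, D24 and D28 held 15.35, 13.69 and 10.82 FPKM. The gap from D16 to the nearest sample was 0.873 of the range of the 4 samples, above the critical value of Dixon at 4 samples. These samples are 4 different days with 1 sample each. Of 20 such groups of 4 tested, 1 was flagged, and chance flags about 1 in 20.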

How the results depend on the processing

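The number of the 10 genes called moved by over 1.5 times in these cases. DESeq2 called 2 for D-2 against NPC in cTECs, 1 for D0 and 2 for D3 against D-2 in cTECs, 1 for D3 and 2 for D6 against D-2 in mTECs, 1 for late against early in mTECs and 1 for each difference between the cell types. edgeR called 1 for D-2 against NPC and 1 for D3 against D-2 in cTECs. With no filter, the counts were 1 for D-2 against NPC in mTECs (Hes1), 1 and 0 for D12 and D6 against D-2 in cTECs, 2 and 1 for D12 (Hes1 and Jag2) and D6 against D-2 in mTECs and 1 for late against early in cTECs (Hey1). Fitting only the groups compared gave 1 for D6 against D-2 in mTECs. RLE scaling gave 1 for late against early in mTECs, as did counting D12 as late. Chosen after the data were seen, leaving out the libraries that stood apart gave 2 for D-2 against NPC and 4 for D6 against D-2 in cTECs and 1 for late against early in mTECs, and the total FPKM as a covariate gave 1 for D-2 against NPC in cTECs and in mTECs 1 for late against early and 1 for D6 against D-2. The cause was not tested. By a smaller step, Hes6 joined Dll4 and Notch1 in cTECs, for 3 calls, with DESeq2 at D6 and D12 against D-2, and at D12 also when only the groups compared were fitted or the libraries that stood apart were left out.

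Leaving out 1 sample at a time gave 1 to 2 calls for D12 and for D6 against D-2 in cTECs, 0 to 1 for D3 against D-2 in cTECs (Hes6 without D3 replicate 3), 0 to 1 for late against early in cTECs (Hey1 without D24) and in mTECs (Hes6 without D0 replicate 2, D12 replicate 2 or D3 replicate 3), 2 to 4 for cTECs against mTECs and 0 to 0 elsewhere. Of 890 log2 fold changes from such fits, 867 kept their direction and side of the threshold, and of 616 from the other alternatives 573 did. The sign turned for Dll1 in D-2 against NPC in mTECs, between -0.16 (without NPC replicate 2) and 1.38, for its difference between the cell types, between -1.33 and 0.24 (without mTEC NPC replicate 2), and for Jag1 in D-2 against NPC in mTECs with the total FPKM as a covariate (-0.07). None of these was called.

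A replicate block was also fitted. For both cell types together, it joined samples with the same time point and the same number in the sample title. Within 1 cell type, it joined samples with the same replicate number at different time points, which came from different mice. Between cTECs and mTECs, 16 pairs with the same title number correlated at -0.14 to 0.12 in their deviations from the group means. Of these, 11 correlated best with their own number among the 3 mTEC samples of the group, more than random matches would give. The correlations were small, so whether the numbers pair the samples was not settled, and fits without this block take no account of it. With the replicate block, 1 gene (Notch1) was called for D-2 against NPC in cTECs and 2 for cTECs against mTECs, and the Dll1 difference for D-2 against NPC turned to 0.54. Low counts limited Hes1 in cTEC D3 replicate 2 (1 count) and Dll4 at D-2 (as few as 101 counts in cTECs).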

Other observations

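Foxn1, the transcription factor that TECs need, held 186, 220 and 67.8 FPKM in NPC cTECs, 109, 74.3 and 92.2 FPKM at D-2 and 314, 209 and 135 FPKM at D6. It was not called at D6 against D-2 in cTECs. From early to late it fell there and was called (log2 fold change -1.28 ± 0.26, adjusted p = 0.00386, limma-voom). Its r with the 10 genes over the 28 cTEC samples ran from -0.75 (Jag1) to 0.65 (Hes6), and over the 28 mTEC samples from -0.66 (Jag1) to 0.77 (Hes6). Samples share preparation and depth, and these correlations are descriptions.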
